A study of Xenopus laevis x Xenopus muelleri with 6 samples.

Results

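Chromatin genes were followed in the testis of hybrid frogs: histones, the enzymes that add or remove marks on them, and the proteins that place, move or read nucleosomes. They were chosen by gene symbol alone, as probe sets with exactly 1 symbol in the platform table whose name begins like a histone, histone chaperone, histone-modifying enzyme, remodeler subunit, chromatin reader, DNA methyltransferase or high mobility group gene. The oocyte linker histone h1-8 and the Polycomb gene cbx2 were left out. This gave 81 of the 11485 probe sets of the table, or 81 of the 6798 with exactly 1 symbol. They covered 68 symbols, or 55 gene names once the L and S copies were joined. X. laevis keeps many genes in such copies, 1 from each of its ancestral genomes.

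RNA came from testes of sexually mature hybrids between a Xenopus laevis mother from the Cape of South Africa and a Xenopus muelleri father from Swaziland, all raised from eggs. Testis of sex-reversed animals was read on 3 arrays and normal testis on 3 arrays. Neither the labels nor the series text say which genetic sex the reversed animals had or which agent reversed it. The labels call the samples biological replicates without saying that each was a separate animal, so the p-values reflect no more than the spread among these samples. Values are log2 expression made with RMA, and a difference is always sex-reversed minus normal on that scale. The array carries X. laevis probes, which may bind the X. muelleri alleles less well.

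DNA in the nucleus is wound on octamers of the core histones H2A, H2B, H3 and H4, with linker histone H1 outside. Most core histone mRNAs are made during DNA replication and end in a stem-loop in place of a poly(A) tail, while variants such as H2A.Z and H3.3 are made throughout the cell cycle. In the testis, chromatin is rebuilt more than in almost any other tissue: marks change at the start of meiosis, and in spermatids many histones are replaced by sperm-specific basic proteins, although Xenopus sperm are known to keep much of their H3 and H4.

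Array medians lay between 5.25 and 5.31. RNA of the germ cell genes ddx4.L and dazl.L was abundant on all arrays. The germ cell helicase gene ddx4.L read 12.54, 12.56 and 12.36 in sex-reversed testes, against 12.62, 12.75 and 12.35 in normal testes. For dazl.L, a germ cell RNA-binding protein gene, the readings were 11.92, 11.93 and 11.94 in sex-reversed testes and 12.01, 12.05 and 11.69 in normal testes. These steady genes do not stand for the whole germ line list. Of its 10 probe sets, 7 leaned down in sex-reversed testes and 3 leaned up (median -0.12, none past the threshold). For dazap1.S (-0.46) and id4.S (-0.53), 2 of the 10, each sex-reversed array lay below each normal array. That was so for 4.26% of all probe sets. The gap in id4.S was narrow, 6.79 against 6.81. Few genes of the lists for meiosis (3 of 20) and for sperm (8 of 21) were measured under a single symbol. Of the 10 probe sets of the sperm list, 6 had mean levels below the 25th percentile of the table, 3.72. Both counts for sperm include sp5.S (mean level 2.90), whose place on that list was not tested. The steroidogenic gene cyp17a1.L set sex-reversed replicate 3 apart, as 5.17 there against 11.14 and 10.49 on the other sex-reversed arrays and 9.96 to 11.34 in normal testes. Of the smooth muscle and peritubular probe sets 11 of 13 had higher means in sex-reversed testis (median 0.50, none past the threshold). The table as a whole had 51.3% higher. The list's mean level, centred per probe set, ran between 0.10 and 0.36 in sex-reversed testes and between -0.34 and -0.11 in normal testes. With 1 array left out the list's median difference ran between 0.16 and 0.65. The sign changed for 5 of the 13 (background 49.5%), and 8 of the 12 listed genes were measured. Other lists leaned either way. By group mean, 3 red blood cell probe sets were higher and 9 lower, and 3 Sertoli cell probe sets were higher and 5 lower. Oocyte (5 higher, 3 lower), leukocyte (5 and 2) and cycling cell (25 and 16) probe sets were more often higher. Groups did not overlap in several of these lists too. Higher were 2 oocyte, 2 sperm and 1 each of smooth muscle, red blood cell, leukocyte and cycling cell probe sets (5.37% of all probe sets). Lower were 2 Sertoli cell, 1 sperm and 1 red blood cell probe sets. The part of any of these cells in the chromatin values was not tested. In whole tissue, fewer cells of a type and less RNA per cell cannot be told apart.

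No chromatin probe set differed between sex-reversed and normal testis past an adjusted p of 0.05 (limma, adjusted over all 11485 probe sets, 3 arrays per group). The background was 0% of all probe sets. The smallest adjusted p of a chromatin probe set in limma was 0.997. Group means were higher in sex-reversed testis for 47 of the 81 and lower for 34, that is 58.0% higher where the table as a whole had 51.3%. The median difference was 0.03, against 0.01 over all probe sets, and the median absolute difference was 0.20, against 0.21. None of the 81 had group means 2-fold apart, as 2.56% of all probe sets did. The extremes were ing3.L at 0.95 and hdac9.S at -0.81.

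The precision of these statements is that of 3 arrays per group. For 52 of the 81 (64.2%, background 62.5%) the whole 95% interval lay inside 2-fold either way, and for 10 (12.3%, background 8.69%) it lay inside 1.5-fold. The half-width of the interval had a median of 0.66 and ran between 0.44 and 2.53. With 1 array left out, the sign of the difference changed for 41 of the 81 (50.6%, background 49.5%). No filter on low values was applied, so all 81 were tested. Of these, 54 had mean levels above the table's median (5.25) and 9 lay below its 25th percentile, where signal over background was not measured. These were h2ac17.L, hmga2.L, hmgn2.L, both kmt5a copies, setd4.L, kdm6a.S, kdm7a.S and brd3.S.

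**Figure D1:**
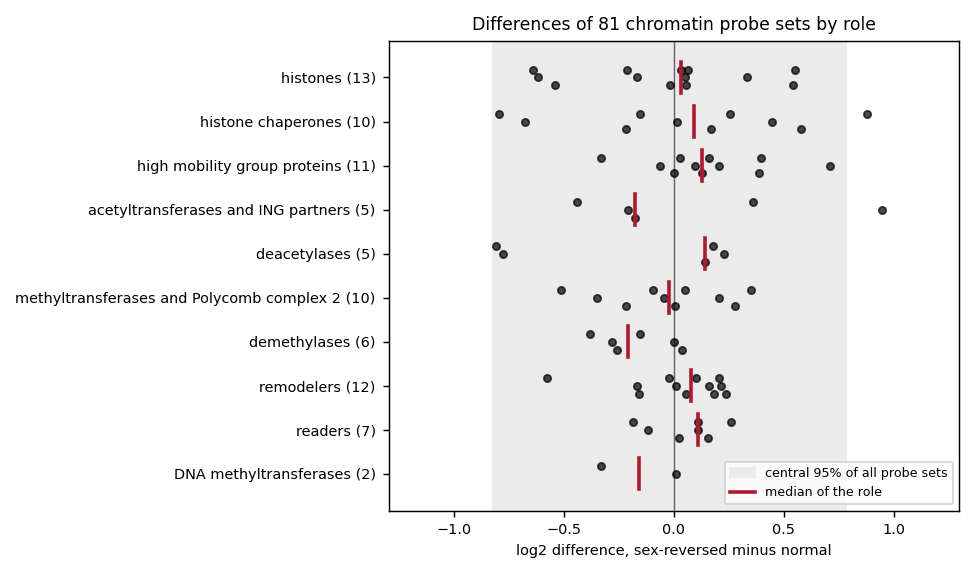
Log2 difference between sex-reversed and normal testis (x axis, sex-reversed minus normal) for each of the 81 chromatin probe sets (points), by role (rows, number of probe sets in brackets). Red bars are medians of the role and the grey band holds the central 95% of all 11485 probe sets. The medians lie between -0.21 for demethylases and 0.14 for deacetylases, and all points lie between -0.81 and 0.95.

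The 13 histone probe sets, 1 per symbol, were 7 higher and 6 lower by group mean, and their median difference was 0.03. None passed in either direction. The range over the 6 arrays differed widely between them, from 0.22 log2 units in h3-3b.L to 4.50 in h2afx. The histone H4 gene h4c4.L read 5.48, 5.23 and 7.12 in sex-reversed testes and 7.48, 3.49 and 7.51 in normal testes. It thus covered 4.02 log2 units over the 6 arrays while the group means differed by -0.21 (95% interval -2.74 to 2.31). The H2A.X probe set h2afx, whose protein marks DNA breaks when phosphorylated, read 6.44, 6.40 and 7.45 in sex-reversed testes, against 7.54, 4.38 and 8.88 in normal testes. Normal replicate 2 was the lowest array for both genes and normal replicate 3 the highest, so the groups overlapped fully.

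Some germ cell genes ran through the arrays in a similar order to h4c4.L and others did not. The spermatogenic helicase gene ddx25.L read 6.26, 6.01 and 8.74 in sex-reversed testes and 8.65, 3.85 and 8.98 in normal testes. The meiotic cyclin gene ccna1.S read 9.64, 9.65 and 10.66 in sex-reversed testes and 10.51, 9.52 and 10.57 in normal testes. For h4c4.L, ddx25.L and ccna1.S alike, sex-reversed replicate 3 and normal replicates 1 and 3 were high, and sex-reversed replicates 1 and 2 and normal replicate 2 were low. The meiotic bromodomain gene brdt.S, at 4.87, 5.89 and 5.84 in sex-reversed testes and 6.51, 5.57 and 7.17 in normal testes, did not keep that order, since sex-reversed replicate 2 lay above replicate 3. The piRNA pathway gene tdrkh.L went the other way on normal replicates 1 and 2, at 3.20 and 6.29, and the synaptonemal complex gene sycp2l.S was higher on sex-reversed replicates 1 and 2 (6.08 and 6.18) than on replicate 3 (5.73). Among cycling cell genes, the licensing factor gene mcm5.L read 7.80, 7.93 and 9.01 in sex-reversed testes and 8.95, 7.25 and 8.96 in normal testes. Its other copy, mcm5.S, went the other way in normal testes, at 5.15, 6.20 and 5.59. Normal replicate 2 was also the highest normal array for mcm2.L, mcm4.L, mcm6.L and mcm7.L. It was the lowest normal array for mcm4.S and lay between the others for mcm3.L. The cyclin gene ccnb2.S read 9.66, 4.83 and 5.69 in sex-reversed testes and 9.22, 4.48 and 9.92 in normal testes, so that it was high on sex-reversed replicate 1. These genes were set beside each other after their values were seen, and a relation between them was not tested.

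**Figure D2:**
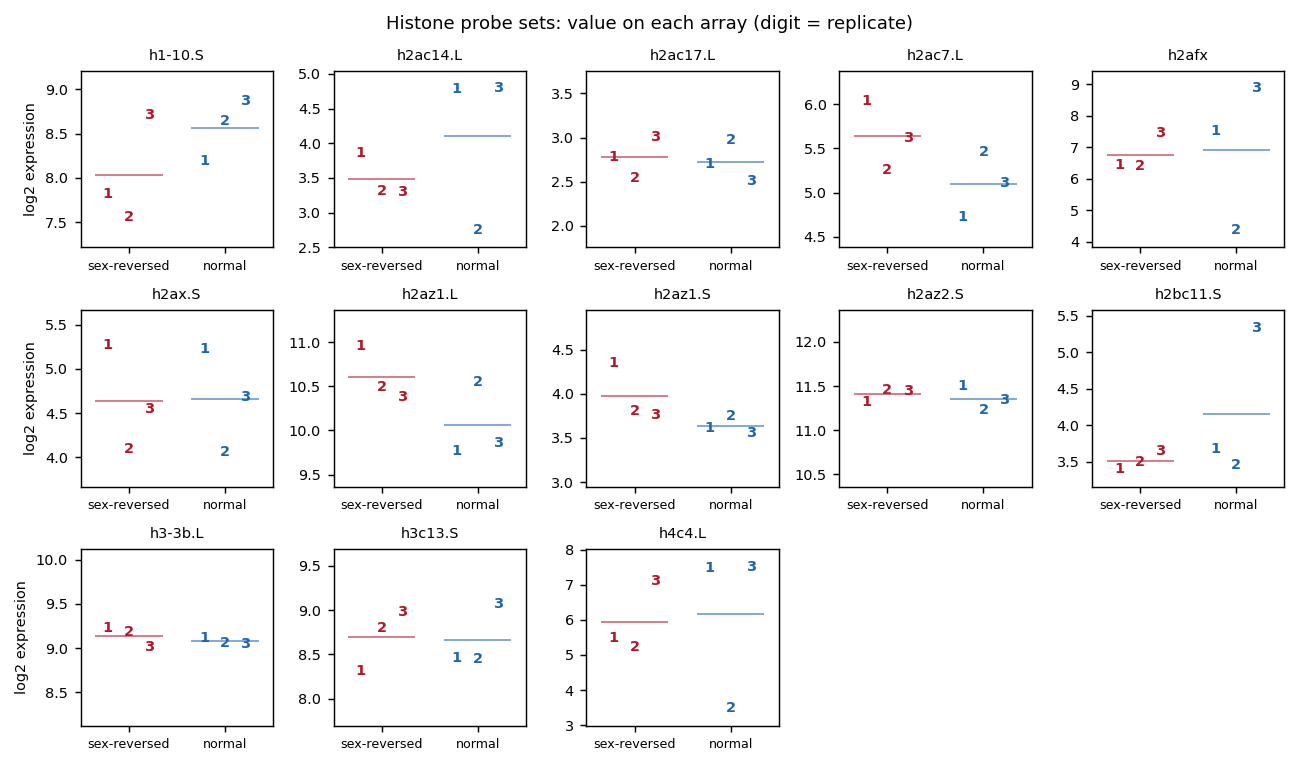
Log2 expression (y axis, scale set per panel with at least 2 log2 units shown) of the 13 histone probe sets on each array, sex-reversed at left in red and normal at right in blue. Digits are replicate numbers and lines are group means. The panels of h4c4.L and h2afx span 4.02 and 4.50 log2 units, with normal replicate 2 lowest, while h3-3b.L spans 0.22.

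Other core and linker histones differed in other ways. The H2A gene h2ac14.L read 3.85, 3.31 and 3.30 in sex-reversed testes, against 4.78, 2.75 and 4.79 in normal testes. Normal replicates 1 and 3 were again high and normal replicate 2 low, but sex-reversed replicate 3 was not high. The mean level of h2ac14.L, 3.80, was close to the 25th percentile of mean levels, 3.72. The H2B gene h2bc11.S stood out only on normal replicate 3, at 5.34, where the other normal arrays read 3.68 and 3.45. In sex-reversed testes it read 3.40, 3.49 and 3.65. Its difference of -0.64 became -0.05 once that array was left out. All its readings but that of normal replicate 3 lay below 3.72, where signal over background was not measured. The H2A gene h2ac7.L differed by 0.54 (95% interval -0.15 to 1.23), with 6.04, 5.25 and 5.62 in sex-reversed testes and 4.72, 5.46 and 5.10 in normal testes. The H3 gene h3c13.S was at 0.03, and h2ac17.L, at 0.05, lay below the 25th percentile. The linker histone gene h1-10.S differed by -0.54 (95% interval -1.35 to 0.27). It read 7.81, 7.56 and 8.71 in sex-reversed testes and 8.19, 8.64 and 8.87 in normal testes.

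Among replacement variants, h3-3b.L and h2az2.S varied little, with ranges of 0.22 and 0.27. The ranges were 0.79 for h2az1.S, 1.19 for h2az1.L, 1.21 for h2ax.S and 4.50 for h2afx. The h2afx probe set is of the _x_at type, which was removed under another setting below. The H3.3 gene h3-3b.L read 9.23, 9.18 and 9.01 in sex-reversed testes and 9.12, 9.06 and 9.05 in normal testes. Its difference was 0.06 with a 95% interval of -0.39 to 0.52. The H2A.Z gene h2az2.S differed by 0.05 (95% interval -0.41 to 0.51). Both copies of the other H2A.Z gene had higher means in sex-reversed testis. The copy h2az1.L read 10.96, 10.49 and 10.38 in sex-reversed testes and 9.77, 10.55 and 9.86 in normal testes, a difference of 0.55 (95% interval -0.13 to 1.23). The copy h2az1.S read 4.35, 3.81 and 3.76 in sex-reversed testes, above 3.62, 3.74 and 3.55 in normal testes without overlap. Its lowest sex-reversed value, 3.76, lay only just above its highest normal value, 3.74. Its mean level, 3.80, was close to the 25th percentile, 3.72. The difference was 0.33 (95% interval -0.22 to 0.88). Neither copy passed (adjusted p = 0.997 for each in limma). The H2A.X copy h2ax.S differed by -0.02, with 5.28, 4.09 and 4.54 in sex-reversed testes and 5.23, 4.06 and 4.68 in normal testes. As for h2afx, normal replicate 2 was its lowest array, but its highest was sex-reversed replicate 1.

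Of the chromatin probe sets 4 had every sex-reversed array on the same side of every normal array, 3 higher and 1 lower. That is 4 of 81, or 4.94%, where the background was 9.63% of all probe sets (5.37% higher and 4.26% lower). Beside h2az1.S, these were hdac9.S, kmt5a.S and a probe set of baz1a.S. With an array left out fewer arrays have to be apart, so the count can only stay or rise, among members as over all probe sets. It was 5 of 81 when sex-reversed replicate 1 was left out (6.17%, beside 17.6% of all probe sets). Without sex-reversed replicate 2 it was 9 (11.1%, beside 18.4%), and without normal replicate 1 also 9 (11.1%, beside 19.2%). It was 14 without normal replicate 3 (17.3%, beside 20.3%) and 17 without sex-reversed replicate 3 (21%, beside 20.8%). Without normal replicate 2 it was 20 (24.7%, beside 20.7%).

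Deacetylases remove acetyl groups from histone tails and other proteins, and 3 of the 5 had higher means in sex-reversed testis. The class IIa deacetylase gene hdac9.S, which acts as a corepressor in muscle and other tissues of mammals, read 3.89, 3.34 and 4.12 in sex-reversed testes. In normal testes it read 4.51, 4.31 and 4.97, all above the sex-reversed arrays. The means were 3.78 ± 0.40 in sex-reversed and 4.60 ± 0.34 in normal testis (SD, n = 3 each), 1.75-fold apart. The difference of -0.81 (95% interval -1.49 to -0.14) had an unadjusted limma p of 0.0246 and an adjusted limma p of 0.997, and so did not pass. It was the only one of the 81 with an unadjusted p under 0.05, that is 1.23%, against 4.42% of all probe sets (2.26% higher and 2.16% lower). Its arrays lay below the array medians of 5.25 to 5.31, and with 1 array left out the difference ran between -0.98 and -0.59.

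The other deacetylases did not separate the groups. The class IIb gene hdac10.L read 2.62, 3.38 and 5.45 in sex-reversed testes and 5.42, 3.46 and 4.91 in normal testes. Sex-reversed replicate 3 lay with the high normal arrays, and the difference of -0.78 became -1.60 without it. The class I genes varied less. Differences were 0.23 for hdac1.L (95% interval -0.28 to 0.73), 0.18 for hdac1.S (-0.53 to 0.88) and 0.14 for hdac8.L (-0.35 to 0.63). In vertebrates HDAC1 is the catalytic subunit of several corepressor complexes.

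**Figure D3:**
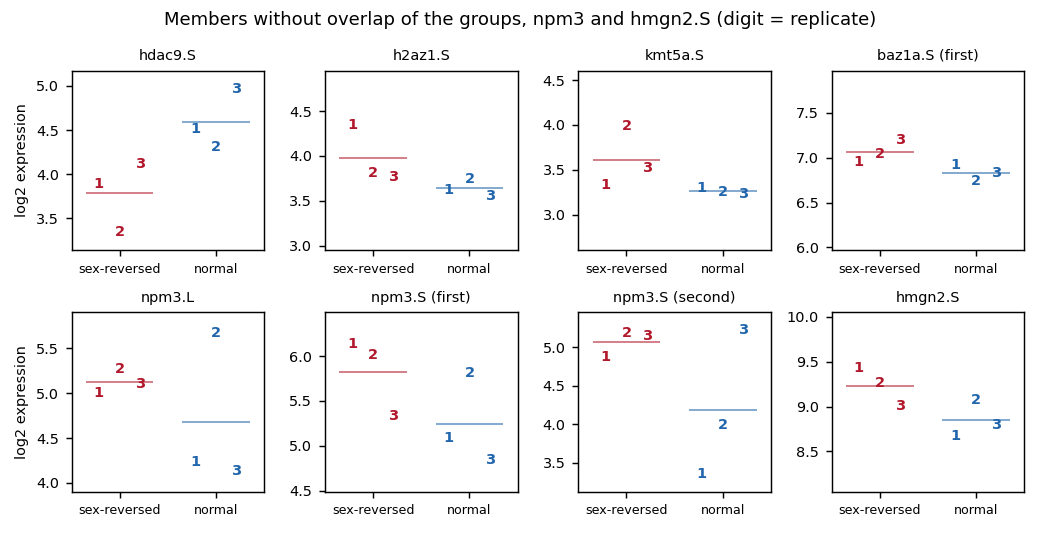
Log2 expression (y axis, scale set per panel with at least 2 log2 units shown) on each array of the 4 chromatin probe sets whose groups do not overlap, of the 3 npm3 probe sets and of hmgn2.S, sex-reversed at left in red and normal at right in blue. Digits are replicate numbers and lines are group means. In hdac9.S the normal arrays, 4.31 to 4.97, lie above the sex-reversed ones, 3.34 to 4.12.

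Acetyltransferase partners of the ING family, which read methylated H3 tails for acetylation or deacetylation complexes, held the widest spread outside the histones. The gene ing3.L, a partner in the NuA4 acetyltransferase complex, read 10.95, 10.79 and 11.35 in sex-reversed testes, against 11.25, 10.49 and 8.52 in normal testes. Its difference of 0.95 (95% interval -0.53 to 2.42) rested on normal replicate 3 and was 0.16 without that array. The gene ing2.L, a partner in the Sin3 deacetylase complex, read 5.91, 6.62 and 3.74 in sex-reversed testes and 6.85, 3.98 and 6.76 in normal testes. There sex-reversed replicate 3 and normal replicate 2 were low together, and the difference was -0.44 (95% interval -2.67 to 1.78). The gene ing1.S differed by 0.36 (95% interval -0.55 to 1.27). The 2 probe sets of the acetyltransferase gene kat7.L, which acts at replication origins, differed by -0.21 and -0.18.

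Histone chaperones carry histones to and from DNA, and 6 of their 10 probe sets had higher means in sex-reversed testis (median 0.09). The nucleoplasmin-family gene npm3, a partner of nucleophosmin in the nucleolus, was higher by mean in all 3 of its probe sets. The first npm3.S probe set read 6.14, 6.01 and 5.33 in sex-reversed testes and 5.09, 5.82 and 4.84 in normal testes. The second read 4.87, 5.19 and 5.15 in sex-reversed testes and 3.36, 3.99 and 5.22 in normal testes. For npm3.L the readings were 5.0, 5.27 and 5.10 in sex-reversed testes and 4.24, 5.67 and 4.13 in normal testes. The groups overlapped in each. Normal replicate 2 lay within the sex-reversed range in the first npm3.S probe set and above it in npm3.L, and normal replicate 3 lay above it in the second npm3.S probe set. The differences were 0.58, 0.88 and 0.45, with intervals that all included 0, and did not pass (adjusted p = 0.997 in limma for each). They stayed above 0 with any single array left out, the lowest being 0.17 for npm3.L.

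Nucleophosmin itself was split between its probe sets. A probe set of npm1.L differed by -0.79 (95% interval -2.07 to 0.48), with 5.76, 7.12 and 5.10 in sex-reversed testes and 6.05, 7.0 and 7.32 in normal testes. The other npm1.L probe set differed by 0.26 and npm1.S by 0.17. The nucleosome assembly gene nap1l1.L held both the steadiest and a variable reading. Its first probe set ran only 0.15 log2 units over the 6 arrays, with a difference of 0.01 (95% interval -0.43 to 0.46). Its second differed by -0.68 (95% interval -1.43 to 0.07), with 7.84, 8.97 and 8.33 in sex-reversed testes and 8.85, 9.02 and 9.31 in normal testes. The large subunit gene of the replication chaperone CAF-1, chaf1a.L, differed by -0.15 (95% interval -0.83 to 0.52).

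High mobility group proteins bend DNA (HMGB), bind nucleosomes (HMGN) or grip the minor groove (HMGA). They were the steadiest of the larger roles, with a median SD within groups of 0.23, beside 0.34 over all probe sets. By group mean, 8 of their 11 probe sets were higher and 3 lower (median 0.13). The gene hmgn2.S read 9.43, 9.26 and 9.0 in sex-reversed testes and 8.67, 9.07 and 8.80 in normal testes. Only normal replicate 2 reached into the sex-reversed range, and the difference was 0.39 (95% interval -0.14 to 0.91). For hmgn1.S the difference was 0.40 (95% interval -0.14 to 0.94) and for hmgn2.L 0.13. The 3 hmgb3 probe sets differed by at most 0.10, and the 4 of hmgb2, a gene highly expressed in mammalian testis, by -0.33 to 0.20. The HMGA gene hmga2.L, which marks embryonic and stem cells in mammals, differed by 0.71 (95% interval -0.19 to 1.61). It read 3.92, 4.88 and 3.33 in sex-reversed testes and 3.12, 3.38 and 3.49 in normal testes, so most of its difference lay on sex-reversed replicate 2, and it was 0.30 without that array.

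Histone methyltransferases were 5 higher and 5 lower by group mean (median -0.02). The copies of kmt5a, which puts the first methyl group on H4 at mitosis, had opposite signs. The copy kmt5a.S read 3.33, 3.98 and 3.52 in sex-reversed testes, above 3.30, 3.25 and 3.23 in normal testes. The copy kmt5a.L read 3.21, 3.14 and 2.94 in sex-reversed testes and 3.68, 4.08 and 3.06 in normal testes. The differences were 0.35 for kmt5a.S and -0.51 for kmt5a.L, and both copies lay below the 25th percentile. The Polycomb enzyme gene ezh2.L, whose product silences developmental genes, differed by 0.28 (95% interval -0.43 to 0.99), and its partner eed.S by 0.21 (95% interval -0.33 to 0.74). The 3 probe sets of setdb1.L, whose product silences transposons in mammals, lay at -0.22, -0.09 and 0.05.

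Demethylases had 2 higher and 4 lower means (median -0.21). The gene kdm3a.L, whose mouse counterpart is needed for spermatid maturation, read 7.06, 7.89 and 9.61 in sex-reversed testes and 9.10, 8.64 and 7.97 in normal testes. The 3 sex-reversed testes thus covered the whole range of 2.55 log2 units, and the difference of -0.38 (95% interval -1.84 to 1.08) was -1.09 without sex-reversed replicate 3. The other copy, kdm3a.S, differed by 0.04 and ranged over 0.60 log2 units. The 2 probe sets of kdm1a.S, the first histone demethylase described, differed by -0.16 and -0.28, and kdm7a.S by -0.26. The gene kdm6a.S, whose mammalian counterpart is X-linked, lay at 0.00 (95% interval -0.46 to 0.46) with levels below the 25th percentile.

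Remodelers move or evict nucleosomes with energy from ATP, and 8 of 12 probe sets had higher means in sex-reversed testis (median 0.08). A probe set of baz1a.S, a subunit of the ACF remodeler that is needed for mouse spermiogenesis, read 6.95, 7.04 and 7.20 in sex-reversed testes. In normal testes it read 6.91, 6.74 and 6.83, all lower, and the difference was 0.23 (95% interval -0.23 to 0.70). The second baz1a.S probe set did not separate the groups and differed by 0.05. The ACF motor gene smarca5.S varied by 2.23 log2 units, with 5.48, 3.98 and 5.01 in sex-reversed testes and 4.30, 6.21 and 4.47 in normal testes. Subunit genes of SWI/SNF, smarca2.L, smarcc1.L, smarcc2.L, smarce1.L and a probe set of smarcd1.L, lay between -0.16 and 0.20. The other smarcd1.L probe set lay at -0.58 (95% interval -1.20 to 0.05). The NuRD motor gene chd4.L lay at 0.01 (95% interval -0.87 to 0.90).

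Readers and DNA methyltransferases were also without a call. The bromodomain gene brd2.S ranged over 0.31 log2 units and differed by 0.02 (95% interval -0.46 to 0.50), while brd3.S, below the 25th percentile, differed by 0.11. Of the heterochromatin protein 1 genes, which bind methylated H3, cbx3.L differed by -0.12, cbx3.S by 0.16 and cbx5.S by 0.26. A probe set of cbx1.S read 7.37, 4.73 and 4.65 in sex-reversed testes and 6.45, 4.52 and 6.34 in normal testes. Each group held both high and low testes, and its difference was -0.19 (95% interval -2.09 to 1.72), beside 0.11 for the other cbx1.S probe set. The maintenance DNA methyltransferase copies differed by 0.01 for dnmt1.L (95% interval -0.58 to 0.60) and by -0.33 for dnmt1.S (95% interval -1.11 to 0.44).

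**Figure D4:**
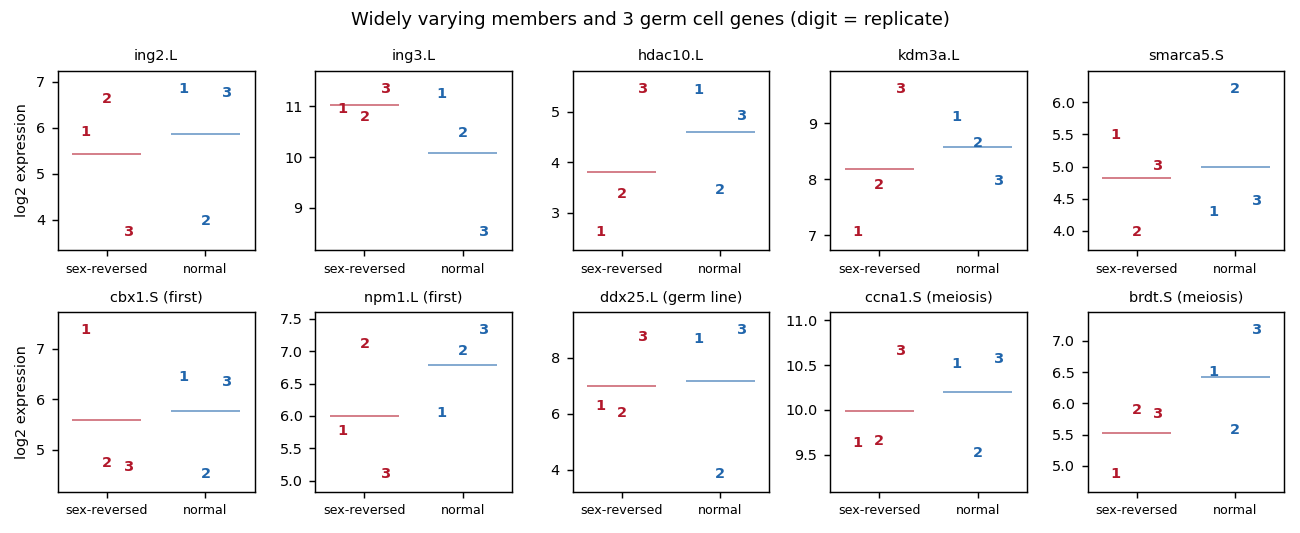
Log2 expression (y axis, scale set per panel with at least 2 log2 units shown) on each array of 7 chromatin probe sets that vary widely and of the germ cell genes ddx25.L, ccna1.S and brdt.S, sex-reversed at left in red and normal at right in blue. Digits are replicate numbers and lines are group means. The order of the arrays differs between members, as in ing2.L, lowest on sex-reversed replicate 3 (3.74), and hdac10.L, highest there (5.45).

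Variation between testes was larger than the group difference for most members. The difference exceeded the pooled SD within groups for 19 of the 81 (23.5%), against 28.2% of all probe sets. A range over the arrays of at least 2 log2 units, 4 times in linear terms, was seen in 10 of the 81 (12.3%), against 8.18% of all. These were h2afx, h4c4.L, h2ac14.L, ing2.L, ing3.L, hdac10.L, kdm3a.L, smarca5.S and probe sets of cbx1.S and npm1.L. At the other end, 12 of the 81 (14.8%, background 12.5%) kept within 0.5 log2 units. The arrays also differed in how often they held the lowest value of a member. Normal replicate 3 was lowest for 22 of the 81 (27.2%, beside 16.0% of all probe sets) and normal replicate 1 for 18 (22.2%, beside 17.1%). Sex-reversed replicates 1 and 2 were lowest for 9 each (11.1%, beside 17.6% and 15.1% of all probe sets). Sex-reversed replicate 3 was lowest for 11 (13.6%, beside 14.02%) and normal replicate 2 for 12 (14.8%, beside 20.2%). The highest value lay on sex-reversed replicate 1 and on normal replicate 2 for 19 members each (23.5%, beside 18.6% and 18.96% of all). It lay on sex-reversed replicate 3 for 7 (8.64%, beside 15.1%).

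Of the genes read by more than 1 probe set, 19 genes with 45 probe sets, 7 had the same sign in all their probe sets and 12 had both signs. The 7 were npm3, h2az1, hmgn2, hdac1, baz1a, kat7 and kdm1a. Probe sets were joined by gene name, so the H2A.X probe sets h2afx and h2ax.S counted as separate genes and are not among the 19. The share with the same sign over the whole table was not counted. A shared sign did not mean that probe sets followed each other over the 6 arrays. Their correlations were -0.41 in kdm1a, -0.25 in hdac1 and -0.11 in kat7. They were 0.28 in hmgn2, 0.55 in baz1a and 0.87 in h2az1, and ran between 0.10 and 0.78 in npm3. The widest gap was in npm1, at 1.05 log2 units between its probe sets, followed by kmt5a with 0.86 and smarcd1 with 0.78. Within each of the 19 genes, the 95% intervals of the probe sets all overlapped. L and S probe sets can bind each other's RNA, and probe sets of the same gene can lie in different parts of the transcript, so they are not replicates of each other.

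**Figure D5:**
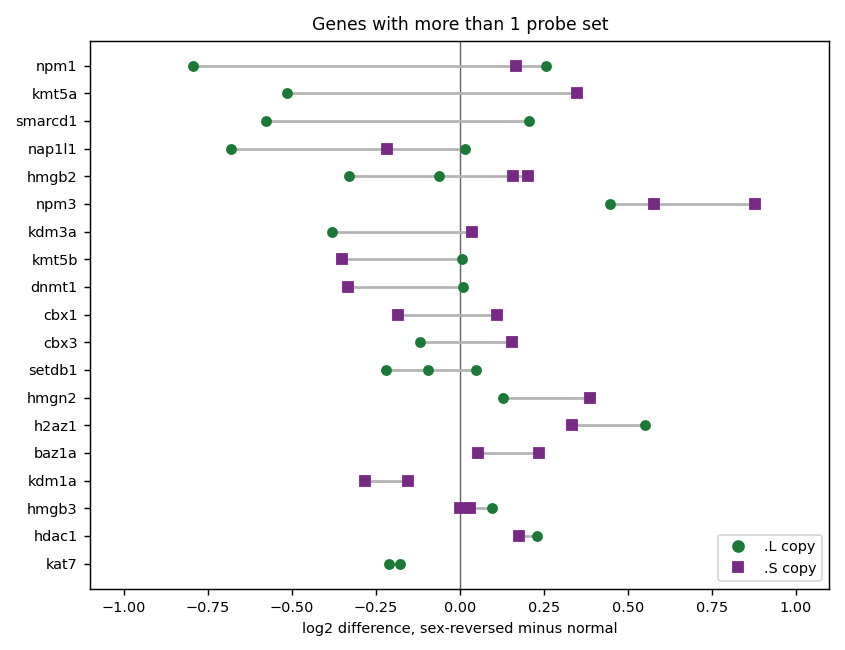
Log2 difference (x axis, sex-reversed minus normal) of each probe set (points) of the 19 chromatin genes with more than 1 probe set (rows, widest gap at the top), green circles for .L and purple squares for .S copies. In npm3 all 3 probe sets lie between 0.45 and 0.88, while npm1 runs between -0.79 and 0.26.

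Chromatin genes outside the naming rule also gave no call. Of 177 listed symbols, among them subunits of the same complexes, 72 were measured, by 102 probe sets, and 62 of these were higher and 40 lower by group mean (median 0.04). None passed, and 4 of the 102 had an unadjusted limma p under 0.05, all 4 with higher means. The background was 4.42% of all probe sets in either direction, 2.26% higher and 2.16% lower. Groups did not overlap for 6 of the 102 that were higher and 1 that was lower. Over all probe sets these shares were 5.37% and 4.26%. The ubiquitin ligase gene uhrf1.S, whose product brings DNMT1 to replicating DNA, was read by 3 probe sets. The one among the 4 read 8.57, 8.26 and 7.59 in sex-reversed testes and 6.87, 7.69 and 6.82 in normal testes. Its difference was 1.01 (95% interval 0.20 to 1.83), while its other probe sets differed by 0.37 (95% interval -0.15 to 0.89) and 0.17 (95% interval -0.35 to 0.70). The thymine DNA glycosylase gene tdg.S, which acts in active DNA demethylation, differed by 1.08 (95% interval 0.19 to 1.97). The Polycomb gene pcgf2.S differed by 0.73 and the elongation factor gene supt5h.S by 0.53.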

How the data were processed

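Testis RNA was biotin-labelled for Affymetrix arrays of 1 colour, per the labels' protocols. The authors deposited log2 values per probe set, and RMA is the tool named in the submitters' processing notes. The log2 scale was read from the range of the values, 1.93 to 14.4. For RMA's version, options and chip definition, and for scan batches, no source gave a statement. Because RMA brings arrays to a shared distribution, differences are relative to the bulk of probe sets. No detection call entered the fit, and the table held 0 columns of other samples.

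All 11485 probe sets were fitted together in limma 3.58.1 with R 4.3.3 (lmFit, then eBayes with a constant prior variance). Tests were two-sided, and Benjamini-Hochberg adjustment ran across the full table. The fit was tested on 10 simulated sets with 200 changed probe sets each. At the same threshold it recovered 14.6% of differences of 1 log2 unit, 87.9% of 2 and 98% of 3. Of the calls 5.46% were false. A real difference of 2-fold would thus mostly be missed. The rates are averages over probe sets with normally distributed noise. The 200 planted changes also ease the adjusted threshold. In the deposited values no probe set was called, though differences ran between -3.13 and 3.99. The rates therefore need not hold there, nor for members with wide intervals such as h4c4.L and h2afx. Named were members with an unadjusted p under 0.05, the 3 largest absolute differences per role, the 10 largest SDs over arrays and a core list of symbols. The genes ddx25.L, ccna1.S, brdt.S, tdrkh.L, sycp2l.S, ccnb2.S, those of the mcm family and some other members were added after their values were seen. So were cyp17a1.L, dazap1.S and id4.S. Outside the members, uhrf1.S, tdg.S, pcgf2.S and supt5h.S were named for their unadjusted p. Members and lists were chosen with earlier results of these data known. Several symbols stood beside 110 probe sets and none beside 4577, and these were not among the members. Coordinates are not given, since no genome was at hand.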

Additional observations from a re-analysis of the deposited data

How the results depend on the processing

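The count of 0 chromatin probe sets past the threshold was the same with median centring, cyclic loess, a further quantile normalization, the replicate block, both level filters, trended and robust variance, array weights, removal of _s_at, _x_at and _a_at probe sets, an adjusted p of 0.1 and with each array left out. At an unadjusted p under 0.05 limma gave 1 of the 81. Over the whole table the count of calls was 0 as reported, 2 at an adjusted p of 0.1, with median centring and with array weights, 1 with a further quantile normalization, with only probe sets above the median level and without _s_at, _x_at and _a_at probe sets, and 0 to 6 with an array left out. With the replicate number as a block the counts stayed at 0 for the chromatin probe sets and 0 for all. Deviations of arrays with the same number correlated at -0.00684, -0.0247 and 0.139, so the numbers were not taken as pairs, and of the sex-reversed arrays replicate 3 alone correlated best with its own number. The median difference of the chromatin probe sets ran between 0.0248 and 0.0648 with an array left out and was 0.0342 with 1 probe set per symbol. Probe sets whose groups do not overlap numbered 4 of the 81 (4.94%, beside 9.63% of all probe sets). Among the 54 above the median level they numbered 1 (1.85%, beside 9.14% of all at that level). With an array left out, where fewer arrays have to be apart, they numbered 5 to 20, and the share of all probe sets was 17.6% to 20.8%. No named probe set was called under any setting.

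Of 71 named probe sets, 34 changed sign with an array left out. Their lowest and highest differences were, by gene, baz1a.S (-0.13 to 0.20), baz1b.S (-0.42 to 0.29), baz2b.S (-0.37 to 0.61), brd2.S (-0.061 to 0.0971), brd3.S (-0.14 to 0.49), cbx1.S (-1.08 to 0.28 and -0.0929 to 0.36), cbx3.L (-0.25 to 0.0355), chaf1a.L (-0.39 to 0.11) and chd4.L (-0.41 to 0.25). Further ranges were, by gene, dnmt1.L (-0.14 to 0.17), h2afx (-1.44 to 0.81), h2ax.S (-0.34 to 0.27), h2az2.S (-0.0166 to 0.12), h4c4.L (-1.55 to 0.46), hdac1.S (-0.0699 to 0.45), hmgb2.L (-0.14 to 0.0865), hmgb3.S (-0.0913 to 0.12 and -0.10 to 0.19) and hmgn2.L (-0.0407 to 0.30). Others were ing2.L (-1.38 to 0.40), kat7.L (-0.41 to 0.0655 and -0.31 to 0.0056), kdm1a.S (-0.44 to 0.19 and -0.86 to 0.0787), kdm3a.L (-1.09 to 0.18), kdm6a.S (-0.0603 to 0.0624), nap1l1.L (-0.0277 to 0.0453), nap1l1.S (-0.48 to 0.07), setdb1.L (-0.40 to 0.0863, -0.21 to 0.18 and -0.56 to 0.0866) and smarca5.S (-0.52 to 0.44). The range of smarcc1.L was -0.32 to 0.0546. Under the other settings, 5 named probe sets with differences near 0 changed sign: kdm6a.S (-0.0018 with median centring, -0.0109 with quantile normalization and -0.0136 with cyclic loess), hmgb3.S (0.0121 with quantile normalization, 0.0035 with cyclic loess and 0.0123 with array weights, and -0.0026 there for its other probe set), dnmt1.L (-0.0032 with array weights) and baz1b.S (0.0836 with array weights). The cause was not tested.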

Other observations

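Outside the 81, 7 probe sets carried several symbols of which at least 1 met the naming rule, and none passed. The probe set shared by h2az1.S and h2az1.L differed by 0.29 (95% interval -0.23 to 0.81), with 2.90, 3.06 and 3.34 in sex-reversed testes and 2.60, 2.90 and 2.92 in normal testes. These readings all lay below the 25th percentile of mean levels, 3.72, where signal over background was not measured. The probe set shared by the copies of ing5, another ING family gene, differed by -0.39 (95% interval -0.96 to 0.18). The probe sets shared by the copies of hmgn3 differed by 0.21 and 0.02, that of cbx3 by -0.06 and that of nap1l1 by -0.10. The probe set shared by hmgn1.S and tmem126a.L differed by -0.28 (95% interval -0.84 to 0.28). The H3 gene hist2h3c, whose symbol the naming rule does not reach, read 3.05, 3.16 and 3.61 in sex-reversed testes and 3.59, 3.57 and 3.91 in normal testes, a difference of -0.42 (95% interval -0.97 to 0.14). Its group means, 3.27 in sex-reversed and 3.69 in normal testis, also lay below 3.72.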
